A study of Mus musculus with 2 samples.

Results

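The genes described here are the mouse zinc finger genes whose symbol is Zfp followed by a number and whose KEGG orthology annotation begins with K09228, the entry for KRAB domain-containing zinc finger proteins. In the deposited data 279 genes met both conditions, and 268 of them reached 10 reads over the control and HTL treatment libraries together, out of 13442 genes with that many reads and 16803 genes in the table. RNA was sequenced from NE4C, a mouse line of neural stem cells that was derived from the forebrain of p53-deficient embryos. The normal culture (control) gave 1 library, and a culture given homocysteine thiolactone (HTL), the cyclic thioester of homocysteine, which reacts with the lysines of proteins, gave the other. Dose and duration of the treatment are not in the sample labels. With 1 library per group no value below has a replicate check, and every test and interval compares the reads of these 2 libraries, not the conditions, and covers counting error only.

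KRAB zinc finger proteins are the largest family of transcriptional repressors in mammals. An array of C2H2 zinc fingers near one end of the protein reads a DNA sequence, and the KRAB box near the other end recruits Trim28 (KAP1), which in turn brings the histone H3K9 methyltransferase Setdb1, HP1 proteins and the NuRD complex to the site. Many members bind retroelements and keep them silent in early embryos and stem cells, and a few hold the DNA methylation of imprinted genes. The genes lie in clusters that grew by repeated duplication, so close copies share long stretches of sequence.

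The libraries held 10350665 reads in the control and 9102076 reads in the HTL treatment sample. Of the 9 tested markers of neural stem cells, 3 were called lower and 0 higher, with a median log2 ratio of -0.11 over the list. By the same limits, given below, 7.98% of all genes tested were called lower and 2.81% higher. The called markers were Sox2, with 894 control reads and 285 HTL treatment reads, Vim, with 1487 and 648, and Sox1, with 48 and 12. Nes had 1617 and 1365 reads, Prom1 443 and 555, and Fabp7 was at 2 reads in each library. The astrocyte marker Gfap was at 2 and 0 reads. The pluripotency gene Pou5f1 had 25077 and 25570 reads, and Nanog had 500 and 275 reads. Calls were 1 lower among 5 tested neuron markers, 1 higher among 2 tested astrocyte markers, 1 higher among 3 tested pluripotency markers, and 0 among 2 oligodendrocyte and 4 fibroblast markers. The summed FPKM of the stem cell markers was 224.4 in the control and 163.2 after HTL, that of the neuron markers was 21.7 and 28.5 (Tubb3 alone 16.3 and 24.8, with a list median log2 ratio of -0.60), and that of the pluripotency markers was 1895 and 2131, of which Pou5f1 alone made 1870 and 2114. The part of these markers' changes in the results below was not tested, and fewer cells of a type and less RNA per cell cannot be told apart in bulk RNA.

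The KRAB boxes of 6 members are shown first, since the box defines the family by name and the 6 genes include the members with the best known targets and the pair of close copies with large falls. Each line gives the coding strand of the box's first part as read from the mouse NCBIM37 genome (the build also called mm9) at the GENCODE M1 transcript, 120 bases in one exon. Capitals mark the fifth and sixth codon of the printed stretch, which code for aspartate and valine (aspartate and leucine in Zfp934), a pair of residues at the surface that binds Trim28.
Zfp57 (chr17:37143019-37143138, plus strand): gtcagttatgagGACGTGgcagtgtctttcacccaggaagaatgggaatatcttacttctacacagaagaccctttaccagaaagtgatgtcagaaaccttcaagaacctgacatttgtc
Zfp568 (chr7:30782775-30782894, plus strand): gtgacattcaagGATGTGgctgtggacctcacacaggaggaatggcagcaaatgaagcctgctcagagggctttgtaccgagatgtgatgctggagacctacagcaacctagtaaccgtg
Zfp809 (chr9:22039470-22039589, plus strand): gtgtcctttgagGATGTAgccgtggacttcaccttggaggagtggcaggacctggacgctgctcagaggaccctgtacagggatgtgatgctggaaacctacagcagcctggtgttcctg
Zfp932 (chr5:110435969-110436088, plus strand): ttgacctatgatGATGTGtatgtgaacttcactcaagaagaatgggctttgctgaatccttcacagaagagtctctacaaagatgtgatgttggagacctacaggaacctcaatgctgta
Zfp934 (chr13:62621779-62621898, minus strand): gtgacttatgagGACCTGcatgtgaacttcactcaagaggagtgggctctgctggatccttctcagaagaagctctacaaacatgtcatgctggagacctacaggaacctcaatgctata
Zfp808 (chr13:62270808-62270927, plus strand): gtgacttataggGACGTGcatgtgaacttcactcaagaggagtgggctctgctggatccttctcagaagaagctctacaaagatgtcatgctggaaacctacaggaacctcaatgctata

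Zfp934 and Zfp808, which lie in the same region of chromosome 13, had the same base at 115 of the 120 positions (95.8%). Zfp932 matched Zfp934 at 103 positions and Zfp808 at 102 positions. Zfp568 and Zfp809 shared 91 positions, and the least similar pair, Zfp57 and Zfp568, shared 72.

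The orthology label was checked against the reference proteins with a profile of the KRAB box. Of 264 members with a protein in the annotation, 176 held a KRAB box and in 88 none was found. The genes without a box included Zfp335, Zfp239, Zfp219, Zfp384 and Zfp451. The orthology record attached to a gene named another gene in 74 of those 88 members and in 28 of the 176 members with a box. The set is therefore called by its rule here, and results are also given for the 176 members with a box.

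More members were lower than higher in the HTL treatment library. Calls needed an adjusted p no higher than 0.001 (two-sided exact binomial test, Benjamini-Hochberg over all 13442 genes) and a log2 ratio of 1 or more in size. Of the 268 members, 40 (14.9%) were called lower, against 7.98% of all genes tested, and 7 (2.61%) were called higher, against 2.81% of all genes tested. The median log2 ratio was -0.44 over members, with a 25th percentile of -0.89 and a 75th percentile of 0.13, and -0.14 over all genes tested. The ratio was below 0 in 191 members (71.3%) and in 58.7% of all genes tested. Without the limit on the log2 ratio, 82 members (30.6%) passed on the lower side and 22 (8.21%) on the higher side, against 24.1% and 14.5% of all genes tested. The lower and higher calls changed to 32 (11.9%) and 11 (4.10%) under TMM scaling, which raised log2 ratios by 0.13 and gave 5.95% and 4.11% of all genes. With TMM 175 members were below 0 and 93 above. The distance between the members' median and that of all genes was -0.30 under each of the 3 other scalings tried. With edgeR's exact test and a coefficient of variation of 0.2 assumed between cultures, 2 members passed the same limits, Zfp931 and Zfp934, both lower, as did 0.61% of all genes on the lower side. With 0.1 assumed, 31 members (11.6%) passed lower and 5 (1.87%) higher, against 6.18% and 2.20% of all genes.

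**Figure D1:**
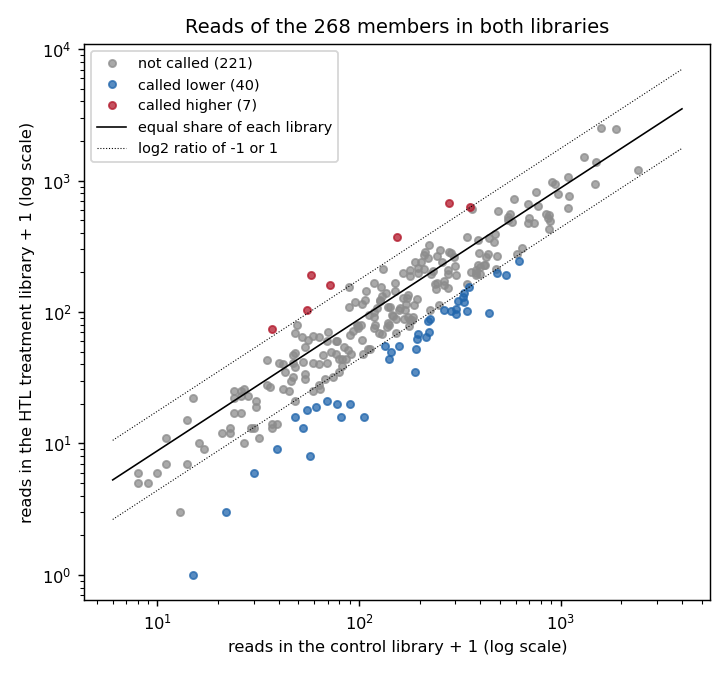
Each point is one of the 268 members, with its control reads on the x axis and its HTL treatment reads on the y axis, 1 read added and both axes on a log scale. The solid line marks an equal share of each library and the dotted lines a log2 ratio of -1 and 1; the 40 members called lower have between 14 and 621 control reads, and the 7 called higher lie between 36 and 353 control reads.

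The members took a small share of each library. Summed over the 268 genes the control library held 65962 reads (0.637%) and the HTL treatment library 51149 reads (0.562%), with a log2 ratio of -0.18 (95% exact Clopper-Pearson interval -0.20 to -0.16). This ratio depended on the scaling and was -0.051 under TMM, -0.088 with the upper quartile and -0.045 with the median of ratios. It was -0.21 without Zfp664, -0.26 without the 5 members with the most reads and -0.29 without the 10 with the most reads, which include Zfp462, with 2420 and 1208 reads. The median level of a member was 3.71 FPKM in the control and 2.86 FPKM after HTL, while the median over all genes tested was 7.13 and 6.14 FPKM. FPKM scales reads to transcript length and library size, so levels of different genes can be set side by side on that scale.

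Among genes with the same orthology entry and another kind of symbol, 43 of 140 (30.7%) were called lower and 2 (1.43%) higher, with a median log2 ratio of -0.80. Among Zfp-named genes under other entries, 7 of 68 (10.3%) were called lower and 0 higher, with a median of -0.31, where 7.98% and 2.81% of all genes were called. All 434 genes under the entry, summed without a minimum of reads, had 103841 and 73486 reads (log2 ratio -0.31, interval -0.33 to -0.30).

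Transcript length was taken into account, because genes with longer transcripts had lower ratios across the table. The median length was 3423 bases for members and 2888 bases for all genes tested. Over the 13174 genes that are not members, length and log2 ratio had a Spearman correlation of -0.18, and over the 268 members it was 0.037. In each of 10 bins of length the members' median lay below that of the other genes. In the 8 bins with at least 10 members the gap ran from -0.033 to -0.39. With the other genes weighted to the members' lengths, 8.79% of them were called lower and 2.65% higher. Relative to genes of similar length and similar reads, the members' median log2 ratio was -0.20, and 163 of 268 members (60.8%) were below 0.

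**Figure D2:**
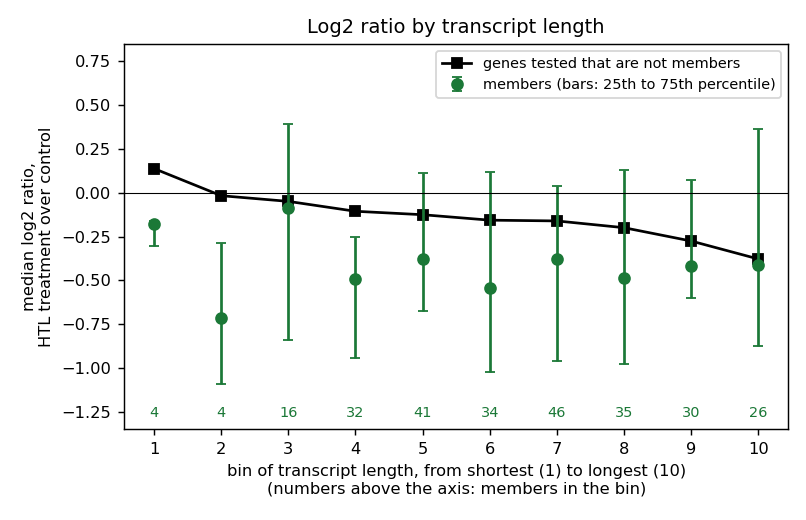
The median log2 ratio of HTL treatment over control reads (y axis) is plotted for 10 bins of transcript length (x axis, from shortest to longest), with black squares for genes that are not members and green circles for members, whose bars run from the 25th to the 75th percentile. The black line falls from 0.14 in the shortest bin to -0.38 in the longest, and every green circle lies below the black square of its bin, nearly touching it in bins 3 and 10.

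The largest falls were taken among called members with a mean of at least 50 reads. Zfp931 (gene ID 353208; chr2:177802400-177813181, minus strand) went from 105 control reads to 15 HTL treatment reads (log2 ratio -2.58, interval -3.51 to -1.83, adjusted p = 1.31e-14). In FPKM its level was 5.73 and 0.93. Zfp934 (gene ID 77117; chr13:62618686-62621904, minus strand) had 189 and 34 reads (log2 ratio -2.27, interval -2.86 to -1.76). Both genes have a KRAB box and both share transcript sequence with other genes, with 77.8% of the 50-base words of Zfp931 its own and 54.8% of those of Zfp934 found in Zfp808. Zfp808 (gene ID 630579; chr13:62231276-62274779, plus strand) had 440 and 98 reads (log2 ratio -1.98, interval -2.31 to -1.66). Because reads could be assigned to either copy, the pair was also summed, which gave 629 and 132 reads (log2 ratio -2.06, interval -2.35 to -1.79). Zfp661, all of whose words are its own, had 89 and 19 reads (log2 ratio -2.02, interval -2.84 to -1.32).

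The other 4 named falls were in genes with sequence of their own. Zfp27 had 190 and 51 reads (log2 ratio -1.70, interval -2.19 to -1.26). Zfp335, a part of histone H3K4 methyltransferase complexes that neural progenitors need for their growth, had 343 and 101 reads and a level of 7.12 and 2.38 FPKM (log2 ratio -1.57, interval -1.91 to -1.25). Exons of Zfp335 overlap those of Pcif1 and Gm11458 on the opposite strand, and whether the counting used strand is not given in the sources used here. Zfp239, also known as Mok2, had 214 and 64 reads (log2 ratio -1.55, interval -1.98 to -1.15). Zfp386 had 140 and 43 reads (log2 ratio -1.51, interval -2.05 to -1.02), and overlaps Gm17626 on the opposite strand. No KRAB box was found in Zfp27, Zfp335 or Zfp239.

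The other called falls had log2 ratios from -2.73 to -1.01, apart from Zfp354b and Zfp600. The first value is that of Zfp324, with 56 and 7 reads, and the last that of Zfp950, with 351 and 153 reads. The called falls with the most reads were Zfp62, with 621 and 242 reads (log2 ratio -1.17, interval -1.39 to -0.96), and Zfp507, with 533 and 190 reads (log2 ratio -1.30, interval -1.55 to -1.06). No KRAB box was found in either, and exons of Zfp507 overlap those of E130304I02Rik and Gm16929 on the opposite strand.

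Among members with few reads, Zfp600 went from 14 control reads to 0 HTL treatment reads and was at least 4.10-fold lower against a floor of 3 reads, while its exact interval, which also counts the error of the 14 reads, ended at a log2 ratio of -1.54. Only 15.6% of the 50-base words of Zfp600 are its own, so its reads are uncertain.

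All 7 rises can be named. Zfp956 (gene ID 101197; chr6:47903389-47915299, plus strand) went from 57 control reads to 191 HTL treatment reads (log2 ratio 1.92, interval 1.5 to 2.38, adjusted p = 4.45e-21), and its exons overlap those of Zfp783 on the same strand. Zfp623 (gene ID 78834; chr15:75771382-75779807, plus strand) had 279 and 675 reads (log2 ratio 1.46, interval 1.26 to 1.67). Zfp707, in the same region of chromosome 15, had 54 and 102 reads (log2 ratio 1.10, interval 0.61 to 1.61). Zfp212, which lies next to Zfp956 on chromosome 6, had 154 and 371 reads (log2 ratio 1.45, interval 1.18 to 1.73). These 4 rises came from 2 places in the genome. Zfp715 had 71 and 160 reads (log2 ratio 1.35, interval 0.95 to 1.78), and Zfp954 had 36 and 73 reads (log2 ratio 1.19, interval 0.61 to 1.82). Zfp869 had 353 and 624 reads (log2 ratio 1.01, interval 0.82 to 1.20), just past the limit. No KRAB box was found in Zfp956 and Zfp623, and the other 5 have one. With the ratio of FPKM + 1, Zfp715, Zfp954, Zfp707 and Zfp869 came under the limit, and with an assumed coefficient of variation of 0.1 the calls of Zfp954 (adjusted p = 0.00547) and Zfp707 (adjusted p = 0.00414) were lost in edgeR's exact test.

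**Figure D3:**
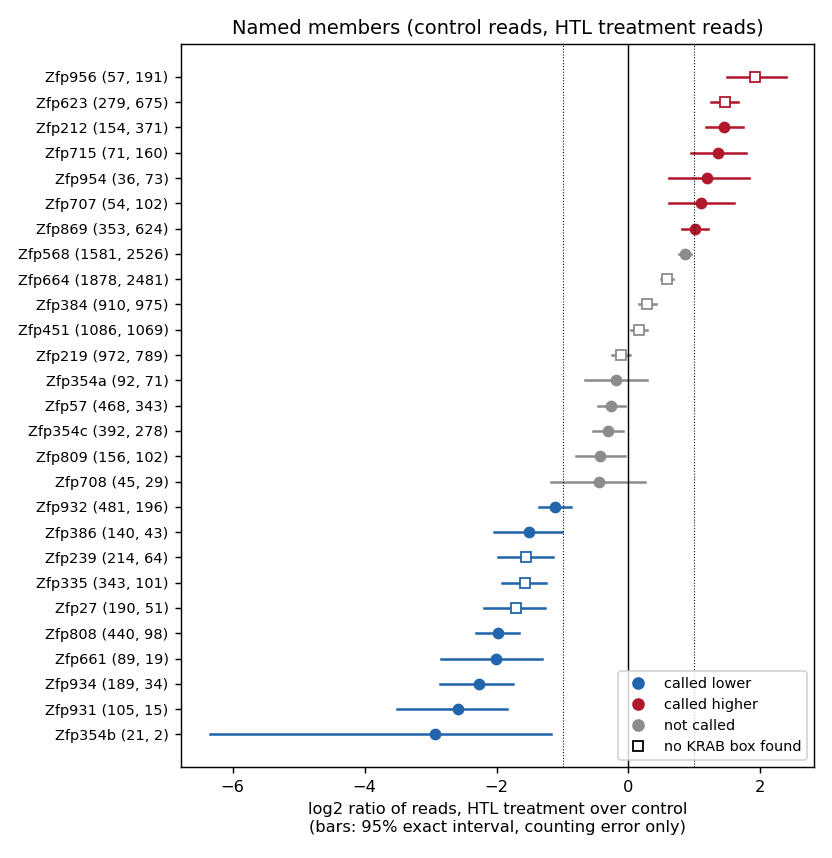
Each row is one named member with its control and HTL treatment reads in parentheses, its log2 ratio of HTL treatment over control (symbol) and the 95% exact interval for counting error (bar). Blue is called lower, red called higher and grey not called, open squares mark members in which no KRAB box was found, and dotted lines mark log2 ratios of -1 and 1; the intervals of the 8 largest falls lie wholly below -1, and that of Zfp354b, with 21 and 2 reads, is the widest.

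The promoters of the largest fall and the largest rise among called members with a mean of at least 50 reads are shown as examples. Zfp600, Zfp354b and Zfp324, with fewer reads, had lower ratios than Zfp931. Each line holds 250 bases before and 50 after the RefSeq start on the gene's strand (GRCm38.p6, with coordinates of that build), with CCAAT and GGGCGG on either strand in capitals.
Zfp931 (chr2:178078376-178078675, minus strand): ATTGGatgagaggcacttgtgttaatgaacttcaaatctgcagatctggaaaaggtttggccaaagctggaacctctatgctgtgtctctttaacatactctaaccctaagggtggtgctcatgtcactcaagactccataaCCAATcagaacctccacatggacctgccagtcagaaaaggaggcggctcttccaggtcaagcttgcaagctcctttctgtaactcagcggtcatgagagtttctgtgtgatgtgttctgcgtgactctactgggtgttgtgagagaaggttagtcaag
Zfp956 (chr6:47953140-47953439, plus strand): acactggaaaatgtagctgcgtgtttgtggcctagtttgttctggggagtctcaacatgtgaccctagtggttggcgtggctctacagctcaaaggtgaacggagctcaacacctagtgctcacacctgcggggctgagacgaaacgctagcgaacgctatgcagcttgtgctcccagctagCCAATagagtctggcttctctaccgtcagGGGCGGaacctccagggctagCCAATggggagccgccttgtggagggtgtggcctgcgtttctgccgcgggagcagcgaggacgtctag

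The Zfp931 window had 3 CpG dinucleotides and 47% GC, and the Zfp956 window had 16 CpG and 58.3% GC. RefSeq held 279 windows for 228 members, with a median of 54.3% GC and 13 CpG, against 61% GC and 20 CpG for all genes tested. Windows of members called lower had a median of 51.8% GC and 9 CpG. Windows of members with a KRAB box had a median of 52.3% GC and 10 CpG, and those of members with no box found had 61.5% GC and 20 CpG. The letters CCAAT were found in 46.6% of members' windows and in 38.1% of the windows of genes tested, and in 37.4% of all windows. The letters GGGCGG, the core of the GC box, were found in 41.2% of members' windows, 62.9% of those of genes tested and 35.7% of all. For CCGGAAG, which ETS factors bind, the shares were 21.1%, 16.6% and 8.86%. TATAAA was found in 7.17%, 6.89% and 13.6%, CACGTG in 5.73%, 9.82% and 7.15%, and ACTACAA in 7.17%, 3.96% and 3.24%. GCGCATGC was found in 3.94%, 5.0% and 2.71%, and TGATGNAA in 1.08%, 2.18% and 3.97%. All motifs were searched on both strands and none contains another.

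The 5 members with the highest FPKM, which are not the 5 with the most reads, had log2 ratios from -0.12 to 0.86, all above the members' median. Zfp664 had 1878 control reads and 2481 HTL treatment reads, and its level was 43.5 and 65.2 FPKM (log2 ratio 0.59, interval 0.50 to 0.67). Zfp568, which silences a placental transcript of Igf2 and which embryos need for gastrulation, had 1581 and 2526 reads and a level of 20.9 and 38.0 FPKM. Its log2 ratio was 0.86 (0.77 to 0.95, adjusted p = 4.75e-78), short of the limit of 1. Relative to genes of similar length and level its log2 ratio was 1.17, past the limit. Zfp384, a nuclear matrix protein, had 910 and 975 reads (log2 ratio 0.28, interval 0.15 to 0.42). Zfp451, a SUMO ligase, had 1086 and 1069 reads (log2 ratio 0.16, interval 0.04 to 0.29). Zfp219, a partner of Sox9 in cartilage, had 972 and 789 reads (log2 ratio -0.12, interval -0.25 to 0.02), and its ratio turned to 0.01 under TMM scaling and 0.02 under the median of ratios. No member among these 5 was called. Across the 268 members, mean reads and log2 ratio had a Spearman correlation of 0.22.

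The members with known targets did not move as one. Zfp57, which keeps the methylation of imprinted genes, had 468 and 343 reads and a level of 20.6 and 18.4 FPKM (log2 ratio -0.26, interval -0.47 to -0.06), and was not called. Zfp445, which shares that role but falls under another orthology entry and is no member, had 1513 and 1190 reads (log2 ratio -0.16). Zfp809, which recognises the primer binding site of murine leukaemia viruses, had 156 and 102 reads (log2 ratio -0.43, interval -0.80 to -0.06), and was not called. Zfp708, which binds a retroelement, had 45 and 29 reads (log2 ratio -0.44, interval -1.17 to 0.26). Zfp932, which binds endogenous retroviruses, was the only called gene of the 4 tested on the list of retroelement and Igf2 silencing, which also holds Zfp568. It was called lower, as were 7.98% of all genes tested. Zfp932 had 481 and 196 reads and a level of 22.4 and 10.4 FPKM (log2 ratio -1.11, interval -1.36 to -0.87, adjusted p = 3.23e-20). The call of Zfp932 was lost under TMM (log2 ratio -0.98), under the median of ratios (-0.97) and with an assumed coefficient of variation of 0.2. Zfp932 shares 42.6% of its words with Gm15446, and the pair summed to 503 and 205 reads (log2 ratio -1.11).

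Of the 3 Zfp354 genes, the first of which was described as the kidney gene Kid1, 1 was called lower, where 7.98% of all genes tested were. Zfp354a had 92 and 71 reads (log2 ratio -0.19, interval -0.66 to 0.27), and Zfp354c had 392 and 278 reads (log2 ratio -0.31, interval -0.54 to -0.08). Zfp354b had 21 and 2 reads (log2 ratio -2.94, interval -6.34 to -1.17, adjusted p = 0.000502). Its call was lost under TMM (adjusted p = 0.00114), with the ratio of FPKM + 1 (-0.73) and with an assumed coefficient of variation of 0.1 (adjusted p = 0.00208). Zfp354b shares 21.6% of its words with Zfp354a, and the pair summed to 113 and 73 reads (log2 ratio -0.44). None of the 8 genes in the table on the list of proteins with both a SCAN and a KRAB domain is a member, since all carry other orthology entries.

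Most partners of the KRAB box had a log2 ratio below 0. Of 20 genes of the repression machinery, 1 was called lower and 0 higher, where 7.98% and 2.81% of all genes were called. The log2 ratio was below 0 in 17 of the 20 (13 under TMM) and in 58.7% of all genes, and the median was -0.25 (-0.12 under TMM). Trim28, the corepressor that KRAB boxes bind, had 5471 and 4728 reads (log2 ratio -0.025, interval -0.082 to 0.031), a ratio that turned to 0.10 under TMM, 0.068 with upper quartile scaling and 0.11 with the median of ratios. Setdb1 had 1829 and 1491 reads (log2 ratio -0.11, interval -0.21 to -0.0099), a ratio that turned to 0.021 under TMM and 0.027 under the median of ratios. Fam208a, a core subunit of the HUSH complex that silences retroelements, was the gene called, with 373 and 80 reads (log2 ratio -2.03, interval -2.40 to -1.68). At an adjusted p of at most 0.001 without the limit on the ratio, 13 of the 20 passed below 0 and 2 above, where 24.1% and 14.5% of all genes passed. Under TMM the counts were 8 below 0 and 3 above, Trim28 among the latter. Such a pass depends on the number of reads, and Chd4, with 14551 and 11858 reads, passed at a log2 ratio of -0.11. Each of the 20 had more reads, averaged over the libraries, than the median of 193 over all genes tested, so the shares are not comparable. The HP1 genes Cbx1, Cbx3 and Cbx5 had log2 ratios of -0.23, -0.95 and -0.88, and the de novo DNA methyltransferases Dnmt3a and Dnmt3b had -0.75 and -0.14. The deacetylases Hdac1 and Hdac2 passed above 0, with log2 ratios of 0.60 and 0.32.

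Members with a KRAB box had a lower median ratio than those in which none was found. Of the 176 with a box, 31 (17.6%) were called lower and 5 (2.84%) higher, the median log2 ratio was -0.47, and 136 were below 0. Of the 88 without, 9 (10.2%) were called lower and 2 (2.27%) higher, the median was -0.29, and 52 were below 0. Over all genes tested 7.98% were called lower and 2.81% higher, so the higher shares of both sets and the lower share of the second lay near that of all genes. Among members with at least 95% of their 50-base words in no other gene, the medians were closer, at -0.39 with a box and -0.34 without. The summed reads of the first set gave a log2 ratio of -0.29 (-0.31 to -0.26), and those of the second -0.09 (-0.11 to -0.07). Under TMM these became -0.16 and 0.042, so the direction of the second turned with the scaling, while its median stayed below 0 at -0.16. The sets also differed in depth, with a median of 96 reads per gene and library in the first and 228 in the second, and the difference between them was not tested. The members were also grouped by their number of fingers, which had a Spearman correlation of -0.17 with the log2 ratio over 264 members. In the 61 members with up to 8 fingers the median log2 ratio was -0.20 and 34 (55.7%) were below 0, near the 58.7% of all genes, in the 141 with 9 to 14 fingers it was -0.48 with 103 below 0, and in the 62 with 15 or more it was -0.54 with 51 below 0. Within the 176 members with a box the same 3 medians were -0.22, -0.48 and -0.54, and within the 88 without one they were -0.18, -0.48 and -0.48. The difference between these groups was not tested.

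Close copies had a lower median ratio than members with sequence of their own. A member's transcripts were cut into 50-base words, and the share of words found in no other gene of the annotation was counted. In the 52 members with under 95% such words, 12 (23.1%) were called lower and 1 (1.92%) higher, against 7.98% and 2.81% of all genes tested, the median log2 ratio was -0.77, and 47 were below 0. In the 212 members at or over 95%, 28 (13.2%) were called lower and 6 (2.83%) higher, the median was -0.36, and 141 were below 0. Under TMM these 212 had a median of -0.23 with 128 below 0, and the 52 had -0.64 with 45 below 0. The summed reads of the 212 gave a log2 ratio of -0.14, which became -0.0062 under TMM. Over 264 members the share of own words and the log2 ratio had a Spearman correlation of 0.27. Nearly all of the close copies have a KRAB box, 50 of 52, and within the members with a box the medians were -0.82 under 95% and -0.39 at or over 95%. Each close copy was also summed with the gene that holds the largest share of its words, which was in the table for 42 of the 52. That share ran from 2.19% in Zfp758 to 83.3% in Zfp960. A sum thus covers the division of reads within the pair, and not division with further genes. These 42 members formed 31 different pairs, since 11 pairs came up from both sides. Over the 42 members the median log2 ratio was -0.77 for the sums and -0.77 for the members alone. Of the sums 39 were below 0 and 14 at or under -1, and of the members alone 37 and 16. Counted once per pair, the 31 sums had a median of -0.83 and 29 were below 0. Some genes, such as Zfp780b, were in several pairs.

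RSEM, the estimator that the authors used, divides reads that fit several genes and leaves fractional values. A value more than 0.001 read from a whole number was taken as fractional. A fractional value in at least 1 library was found in 151 members (56.3%) and in 23.8% of the other genes tested. The 151 had 26 calls lower (17.2%), 3 higher (1.99%) and a median of -0.52, and the 117 members with whole values had 14 lower (12%), 4 higher and a median of -0.24. Of genes that are not members, 10.4% of those with a fractional value were called lower and 2.33% higher, and of those with whole values 7.02% were called lower. The same order held among genes that are not members, with a median of -0.26 for 3131 genes with a fractional value and -0.10 for 10043 with whole values. The effect of the division on the members' ratios was not tested.

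**Figure D4:**
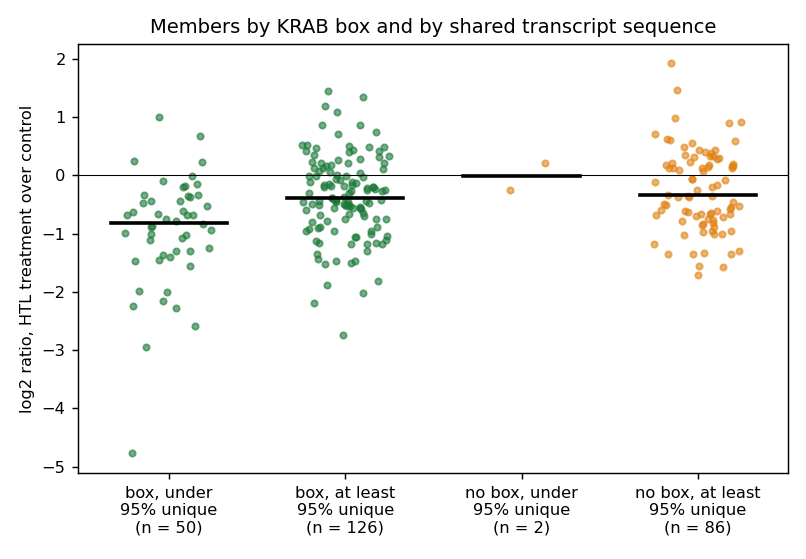
Each point is one of 264 members with a reference protein, placed by its log2 ratio of HTL treatment over control reads (y axis) and grouped by KRAB box (green with, orange without) and by the share of its 50-base words that no other gene holds; black bars are medians. The 50 members with a box and under 95% own words have a median of -0.82, the 126 with a box and at least 95% own words -0.39, and the 86 without a box and at least 95% own words -0.34; the lowest point is Zfp600, whose 0 reads in the HTL treatment library were set to 0.5 read.

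The medians of chromosomal clusters ranged widely. Members were joined into a cluster where the gap to the next member was at most 500 kb on NCBIM37, which formed 14 clusters of at least 5 members, which held 128 members with 16 calls lower (12.5%), 3 higher (2.34%) and a median log2 ratio of -0.43, beside 7.98% and 2.81% called over all genes. A further 59 members lay in clusters of 2 to 4, with 15 calls lower (25.4%), 4 higher and a median of -0.57. The 73 members outside any cluster had 9 calls lower (12.3%), 0 higher and a median of -0.20, and 8 members had no position in the annotation.

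Of the 4 clusters with the lowest medians, 3 are described here, with fractional values in 18 of 19, 16 of 19 and 8 of 10 members, and the other, on chromosome 7, had fractional values in 1 of 5. In the same order the 3 had medians of 31, 48 and 43.75 reads per gene and library. Over all genes tested the median was 193 reads, 7.98% were called lower and 58.7% were below 0. On chromosome 13, 19 members within chr13:67139530-67927937 had a median of -0.75 and 4 calls lower, with log2 ratios from -2.25 in Zfp458 to 0.51 in Zfp459. Zfp458 had 29 and 5 reads, and the cluster's members Zfp85, with 38 and 8 reads, and Zfp729a, with 284 and 101 reads, were also called lower. On chromosome 17, 19 members within chr17:21145905-23736454 had a median of -0.68 and 5 calls lower, and 18 of the 19 were below 0. The lowest there was Zfp820, with 77 and 19 reads (log2 ratio -1.81), and the one above 0 was Zfp948, with a log2 ratio of 0.52. On chromosome 7, 10 members within chr7:24866943-25372660 had a median of -0.77 and 2 calls lower, Zfp94 and Zfp111.

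Further clusters had medians nearer to 0 or above it. The 12 members within chr17:32908181-33531586, on the same chromosome as the cluster of 19, had a median of -0.26 and no call, with a range from -0.95 in Zfp811 to 0.48 in Zfp870. The 8 members within chr6:47785660-48573226 had a median of 0.54, 2 calls higher (Zfp956 and Zfp212) and none lower, and 2 of the 8 were below 0. Over all genes tested, 2.81% were called higher. The 13 members within chr7:30553571-30954746 had a median of -0.064 and reached from Zfp27 at -1.70 to Zfp568 at 0.86, so neighbours in one cluster differed by more than their counting intervals.

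**Figure D5:**
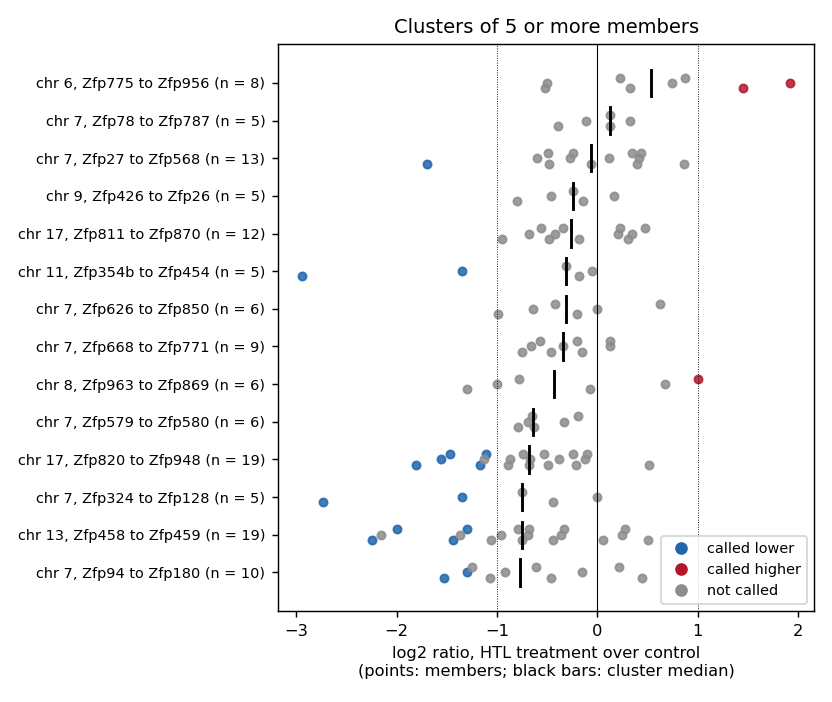
Each row is one of the 14 clusters with at least 5 members, named by chromosome and by its members with the lowest and the highest ratio, and each point is a member's log2 ratio of HTL treatment over control reads (x axis), blue where called lower, red where called higher and grey where not called. Black bars are cluster medians, which run from -0.77 in a cluster of 10 on chromosome 7 to 0.54 in the cluster of 8 on chromosome 6.

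Of the 279 genes that matched symbol and entry, 11 had under 10 reads and were not tested. Their reads summed to between 1.13 in Zfp456 and 9 in Zfp786 over both libraries. The members nearest the limit were Zfp663 with 11 reads, Zfp382 with 11.6 estimated reads and Zfp551 with 12 reads.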

How the data were processed

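Per the labels, libraries from total RNA were prepared with the TruSeq kit and run by BGISEQ protocols. The study's methods state mapping to the mouse genome and genes. The submitters' processing notes name the mm9 build, and the aligner's version, the annotation and the use of strand are not given in the sources used here. The authors deposited 1 table with estimated counts (RSEM), not normalized, and FPKM values, which the authors scaled to transcript length and library size. The log2 ratio, p-value and FDR in that table are the authors' own comparison and were not used.

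Rounding the estimated counts gave whole numbers that summed to 10350665 and 9102076 reads. Every gene with 10 or more reads over the pair of libraries was tested with a two-sided exact conditional binomial test against the library totals (scipy 1.17.1), with Benjamini-Hochberg adjustment over 13442 genes. Calls needed an adjusted p no higher than 0.001 and a log2 ratio of 1 or more in size, as in the study's methods. Before ratios were taken, 0.5 read scaled to the totals was added. Intervals are exact Clopper-Pearson intervals. Reads carry no molecular identifiers and are not independent molecules, so counting error is all that intervals and floors cover. A library at 0 reads was given a floor of 3 reads. Models with a replicate error (edgeR's quasi-likelihood test, DESeq2) could not be fitted to 1 library per group. The test was tested on simulated counts.

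Positions, proteins and transcript words came from GENCODE M1 on NCBIM37, and promoters from RefSeq GRCm38.p6. KRAB boxes were found with a profile of 42 residues and a minimum score of 20, which 13 of 21756 genes with no C2H2 finger also reached. Length was treated in 10 bins.

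The genes named were up to 8 falls and 8 rises with the largest called ratios among members with a mean of at least 50 reads, the 5 members with the highest FPKM, the genes of the role lists, and Trim28, Setdb1 and the called gene of the repression list. Zfp600, Zfp324, Zfp950, Zfp62, Zfp507 and the members named in clusters were chosen after their values were seen, as were the sums over close copies and the counts by finger number. The members, the lists and the rule were chosen with earlier results of these data known.

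Alternatives were TMM (edgeR 4.0.16), median of ratios (DESeq2 1.42.0) and upper quartile scaling, other filters, other added reads, the ratio of FPKM + 1, other cutoffs, edgeR's exact test with an assumed coefficient of variation, a correction for length and level, and subsets of members.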

Additional observations from a re-analysis of the deposited data

How the results depend on the processing

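No paired analysis was possible because each group has 1 library, and leaving out a library leaves no comparison. The count called lower of 40 and higher of 7 (7.98% and 2.81% of all genes) became 82 and 22 without the limit on the log2 ratio (24.1% and 14.5% of all genes), 9 and 0 with a limit of 2 (1.58% and 0.55%), 17 and 3 with the ratio of FPKM + 1 (4.28% and 1.79%), and 14 and 4 among the 117 members with whole values. With edgeR's exact test the counts were 2 and 0 when the coefficient of variation was set to 0.2 (0.61% and 0.283% of all genes), and 0 and 0 when it was set to 0.4 (0.0372% and 0.00744%). Spread between cultures cannot be measured here. TMM and the median of ratios each gave 11 calls higher (4.11% and 4.16% of all genes). The median log2 ratio of -0.44 became -0.31 with TMM, -0.30 under the median of ratios, -0.27 with the ratio of FPKM + 1, -0.20 relative to genes of similar length and level, and -0.24 among members with whole values. The ratio of the summed reads, -0.18, became -0.051 with TMM, -0.045 under the median of ratios, -0.088 under the upper quartile, -0.11 among members with whole values, and, in subsets chosen after seeing the data, -0.29 with a KRAB box and -0.14 with at least 95% own words. Of the named genes, Zfp219 turned to 0.015 under TMM and 0.021 under the median of ratios, Trim28 to 0.10, 0.11 and, under the upper quartile, 0.068, Setdb1 to 0.021 and 0.027, and Zfp354a to 0.12 relative to genes of similar length and level. Over 30 named genes and 14 alternatives, 344 values kept direction and call, 62 lost the call, 4 gained it and 8 turned. Zfp708 and Zfp354b had no value where a mean of at least 50 reads was required. The cause was not tested for any of these beyond the construction of each alternative.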
